A study of Mus musculus with 18 samples.

Results

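The core spliceosome genes described here are 50 protein-coding mouse genes of the major spliceosome, the machine that removes introns from messenger RNA precursors. They were chosen by gene symbol: proteins of the Sm and LSm rings, of the U2, U4/U6 and U5 small nuclear ribonucleoproteins (snRNPs) and of the Prp19 complex, with the factors that act beside them, and without the proteins particular to U1. All 50 were found among 55401 genes. Values are in TPM, a share of all transcripts, in which reads are corrected for gene length, so levels can be set side by side between genes. The labels gave 3 tissues, colon, lung and liver, from C57BL/6N mice aged 7 weeks. Mice received by mouth either RECTAS at 100 mg/kg in 0.5% carboxymethyl cellulose (CMC) or 0.5% CMC alone as vehicle, with doses 4 h apart, and tissues were taken 8 h after the first dose. RECTAS, short for rectifier of aberrant splicing, is a small-molecule splicing modulator, and the study asked how splicing was altered in treated mice. Each tissue had 3 vehicle and 3 RECTAS libraries of polyadenylated RNA, 18 in all. It is not stated whether libraries of 1 group stem from different mice, or whether the 3 tissues come from the same mice. The p-values thus measure the spread between these libraries, which may be technical.

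Each snRNP is built around a small nuclear RNA. Sm proteins close into a ring on the U1, U2, U4 and U5 RNAs, and LSm proteins form a related ring on the tail of U6. U2 pairs with the branch site of the intron, the U4/U6.U5 tri-snRNP joins, RNA helicases of the DEAH and Ski2-like families remodel the particle, and the Prp19 complex holds the active site in place. These genes are used by every cell that splices RNA. In pieces of whole tissue, fewer cells of a type and less RNA per cell cannot be told apart. Gene-level TPM shows how much RNA of a gene was present, and shows nothing of which exons were joined.

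The tissue labels matched their markers. Summed over 6 hepatocyte markers, TPM ran from 92011 to 110360 in liver libraries. Summed over 5 alveolar type 2 markers it lay between 34818 and 43106 in lung libraries, and over 7 colonocyte markers between 9553.3 and 28900 in colon libraries. Marker levels differed between some libraries of a group. The summed TPM of 5 smooth muscle markers was 4153.8 in colon vehicle replicate 1 against 1507.1 and 1418.9 in the other vehicle libraries, and 1280.4 to 2430.0 in the RECTAS colon libraries. Hepatocyte markers summed to 27.2 to 1361.3 TPM in the vehicle lung libraries and 9.59 to 546.5 TPM in the RECTAS lung libraries, with none of the 6 markers at 0. Proliferation markers (12 genes) in vehicle libraries summed to 268.7 to 295.2 TPM for colon, 133.9 to 162.7 for lung and 41.1 to 47.4 for liver. In the RECTAS libraries the sums were 223.4 to 384.0 TPM for colon, 126.3 to 193.3 for lung and 39.7 to 69.2 for liver. The part of these differences in the results was not tested. Read depth cannot be recovered from TPM and is unknown here.

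All 50 core spliceosome genes were at or above 1 TPM in each tissue. In vehicle libraries the median gene stood at 31.7 TPM in colon, 40.6 TPM in lung and 18.2 TPM in liver. The range ran from 5.65 TPM (Prpf4) to 126 TPM (Snrpe) in colon, from 7.88 TPM (Txnl4a) to 172 TPM (Snrpb) in lung, and from 3.78 TPM (Prpf4) to 68.4 TPM (Sf1) in liver. Libraries of a group lay close together: the median coefficient of variation over the 50 genes was 5.55% in vehicle colon, 5.11% in vehicle lung and 9.001% in vehicle liver. The genes also kept much the same order, with a Spearman rho across the 50 genes of 0.922 between colon and lung, 0.849 between colon and liver and 0.854 between lung and liver. These rho values describe genes of the same libraries and are not a test.

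Over the 18 libraries the highest mean levels belonged to Snrpb (104 TPM), the Sm ring protein SmB, Sf1 (103 TPM), which binds the branch point, Snrpe (98.5 TPM), another Sm protein, U2af1 (89.7 TPM), which reads the end of the intron, and Sf3b2 (87.2 TPM), a subunit of the SF3b complex of U2. The lowest belonged to Prpf4 (6.32 TPM), a U4/U6 protein, Sf3b5 (9.67 TPM), a small SF3b subunit, Dhx8 (10.2 TPM), the helicase that releases the spliced RNA, Txnl4a (10.96 TPM), a small U5 protein, and Aqr (11.8 TPM), a helicase that binds introns.

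**Figure D1:**
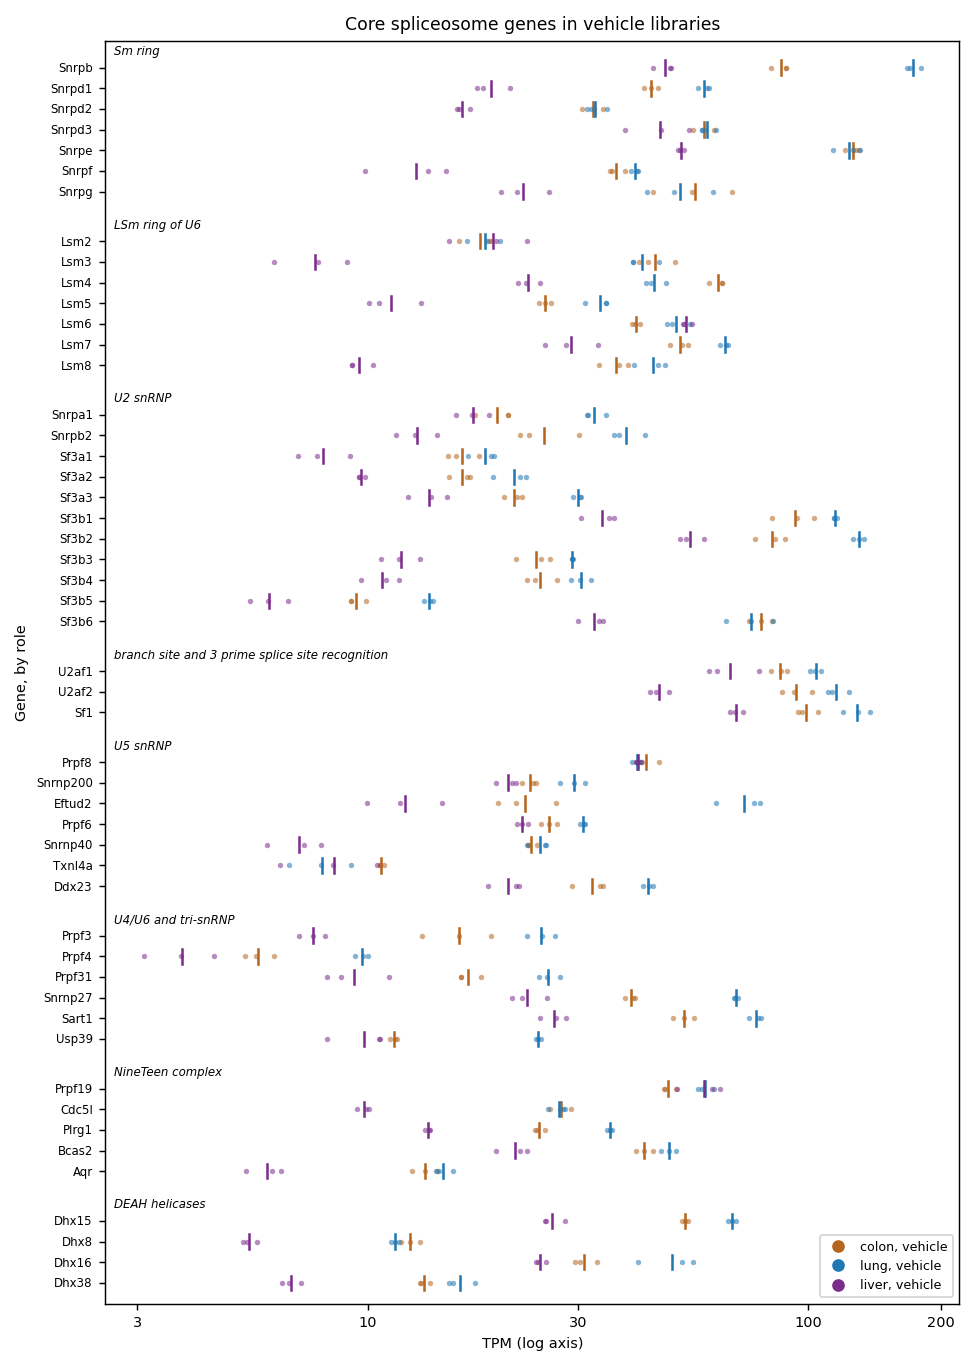
TPM of the 50 core spliceosome genes in the 9 vehicle libraries, on a log axis, grouped by role. Points are libraries and vertical ticks are means of 3 libraries. Liver lies furthest left for 45 genes, and lung lies furthest right for 39.

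Summed over the 50 genes, vehicle libraries held 1995.7 ± 45.3 TPM in colon, 2521.2 ± 56.0 TPM in lung and 1142.7 ± 60.2 TPM in liver (SD, n = 3). Mean TPM was highest in lung for 39 genes, in colon for 9 and in liver for 2, and lowest in liver for 45, in colon for 3 and in lung for 2. Tissues were compared with limma on log2(TPM + 1), and a gene is said to be called where its Benjamini-Hochberg adjusted p over all genes tested lay below 0.05. Between lung and colon, 33 of the 50 were called higher in lung and 2 lower, where 51% and 24.7% of all 16715 genes tested were called. Between liver and colon, 2 were called higher in liver and 42 lower, against 16.1% and 63.8% of all genes. Between liver and lung, 0 were called higher in liver and 45 lower, against 13.5% and 74.5% of all genes. At an unadjusted p below 0.05 the counts were also 0 and 45, against 13.6% and 74.8%.

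The median of all genes tested differed in the same direction as that of the 50. The median log2 difference of the 50 genes was 0.30 between lung and colon, where the median of all genes tested was 0.35. It was -0.88 between liver and colon, where all genes stood at -0.68, and -1.16 between liver and lung, where all genes stood at -1.10. The 20 highest genes of each library took 35.4% to 37.5% of TPM in liver, 29.2% to 33.7% in lung and 30.4% to 32.5% in colon. A rescaling left out the mitochondrial genes and the 20 genes with the highest mean over the 9 vehicle libraries, a set shared by the tissues. It left the medians of all genes at -0.68 for liver against colon and -1.16 for liver against lung. Of the 50 genes, 2 were called higher and 40 lower, and 0 and 45. With median ratio scaling, which sets the median gene equal between libraries, the counts became 7 higher and 15 lower for lung against colon, 19 and 13 for liver against colon, and 19 and 9 for liver against lung, while all genes split into 36.4% higher and 36.3% lower, 35.5% and 37.2%, and 35.4% and 40.9%. With quantile normalisation they were 22 and 9, 13 and 21, and 11 and 27, beside 36.7% and 37.5%, 35.2% and 37.2%, and 36.8% and 39.2% of all genes. With median ratio scaling, 11 genes called lower in liver than in colon and 14 called lower in liver than in lung were called higher instead, and with quantile normalisation 5 and 6 were. The counts of genes per role given below are on the deposited scale unless all 4 scalings are named. Under all 4 scalings run, 6 genes were called higher and 1 lower in lung than in colon, 2 higher and 13 lower in liver than in colon, and 0 higher and 9 lower in liver than in lung. The share of all genes called under all 4 scalings was not computed. Whether these counts, or the counts per role under all 4 scalings given below, differ from those of other genes is therefore not known.

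**Figure D2:**
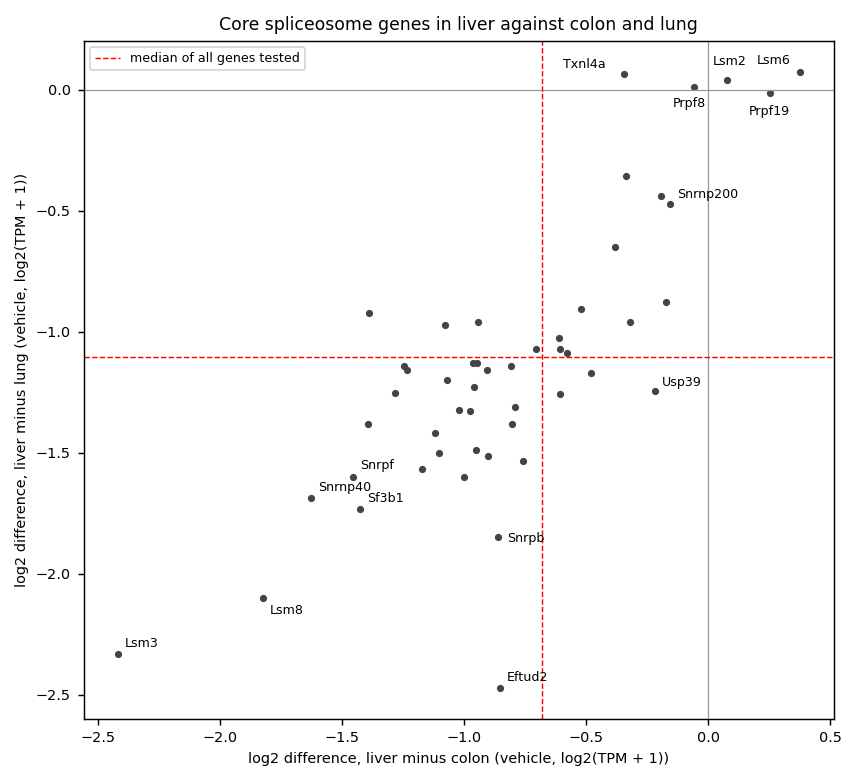
Each point is a core spliceosome gene, placed by its log2 difference between liver and colon (x) and between liver and lung (y) in vehicle libraries on the log2(TPM + 1) scale. Dashed lines mark the medians of all genes tested, -0.68 and -1.10. Lsm3 and Lsm8 lie at the lower left, Eftud2 lowest against lung, and Lsm6, Prpf19, Lsm2, Prpf8 and Txnl4a lie near 0 against lung.

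Among the LSm genes of U6, Lsm3, Lsm4 and Lsm8 were lower and Lsm6 was higher in liver than in colon under all 4 scalings. Lsm2 to Lsm8 form a ring of 7 proteins that binds the end of U6 RNA, and all but Lsm8 also serve, with Lsm1, in a cytoplasmic ring that acts in mRNA decay. Lsm3 (chr6:91515928-91522625, GRCm38, plus strand) was at 41.2, 43.2 and 49.9 TPM in the vehicle colon libraries, 45.9, 40.0 and 40.0 TPM in lung, and 7.72, 6.11 and 8.96 TPM in liver. Liver was far below the other tissues in every library, by 5.89-fold against colon and 5.53-fold against lung. The log2 difference was -2.42 ± 0.132 (SE) against colon and -2.33 ± 0.132 against lung (limma adjusted p = 1.83e-07 and 1.62e-07). Lsm8 (chr6:18848579-18855751, plus strand), the member found only in the U6 ring, followed with 39.0, 37.2 and 33.4 TPM in colon, 45.7, 47.2 and 40.3 TPM in lung and 9.23, 9.20 and 10.3 TPM in liver. Its log2 difference was -1.83 ± 0.092 against colon and -2.10 ± 0.092 against lung (adjusted p = 1.1e-07 and 3.45e-08). Both genes kept these calls under all 4 scalings, with Lsm3 still -1.54 against colon and -1.05 against lung after median ratio scaling, and Lsm8 -0.93 and -0.80.

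The LSm genes Lsm6 and Lsm2 were not called lower in liver under any scaling run. Lsm6 (chr8:78804865-78821140, minus strand) was at 40.5, 41.4 and 39.7 TPM in vehicle colon, 53.8, 49.0 and 47.7 TPM in lung and 51.9, 54.4 and 52.1 TPM in liver. On the deposited scale liver was above colon in every library, by 0.37 ± 0.066 on the log2 scale (adjusted p = 5.91e-04), and overlapped lung. The call against colon held under all 4 scalings, at 1.32 with median ratio scaling and 0.88 with quantile normalisation. Against lung, Lsm6 was called higher in liver with these 2 scalings, by 1.42 and 0.70. Lsm2 (chr17:34981862-34985891, plus strand) was nearly level, at 17.98 ± 1.64, 18.5 ± 1.60 and 19.2 ± 3.84 TPM in colon, lung and liver (SD, n = 3), with no call between any pair of tissues on the deposited scale. With median ratio scaling Lsm2 was called higher in liver, by 0.996 against colon and 1.35 against lung on the log2 scale, and with quantile normalisation by 0.78 and 1.12. The ratio of 2 genes within a library does not depend on the scale. Lsm6 to Lsm3 stood at 0.98, 0.96 and 0.80 in the vehicle colon libraries, 1.17, 1.22 and 1.19 in lung and 6.72, 8.91 and 5.82 in liver. Lsm2 to Lsm8 stood at 0.49, 0.43 and 0.56 in colon, 0.41, 0.42 and 0.42 in lung and 1.65, 2.12 and 2.23 in liver. In each liver library both ratios lay above those of every colon and lung library, as RNA and with no measure of the proteins. Lsm4 was the LSm gene that was lower in lung than in colon under all 4 scalings. On the deposited scale it was at 44.7 ± 2.43 against 62.3 ± 2.49 TPM, a log2 difference of -0.47 ± 0.073 (adjusted p = 2.83e-04). Lsm5 and Lsm7 lay between, with vehicle means of 25.3 and 51.1 TPM in colon, 33.6 and 64.6 TPM in lung and 11.3 and 28.9 TPM in liver.

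**Figure D3:**
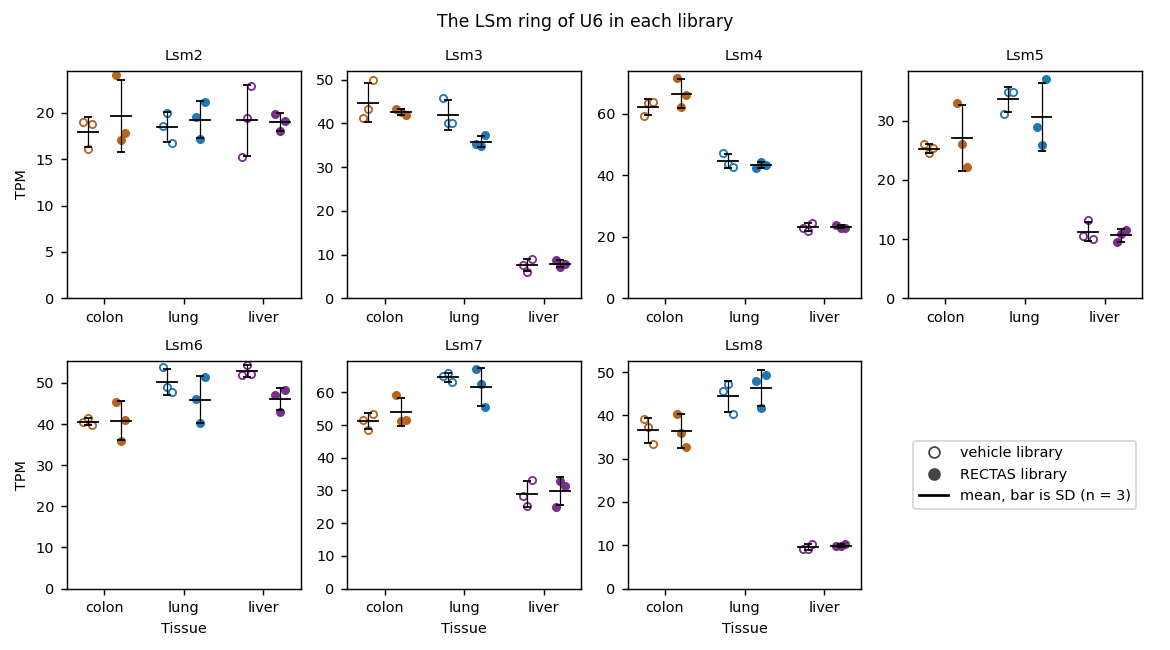
TPM of the 7 LSm genes in each of the 18 libraries, with the mean and SD of 3 libraries per group, vehicle open and RECTAS filled. Lsm3 and Lsm8 fall below 11 TPM in each liver library, while Lsm6 and Lsm2 are as high in liver as in lung.

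The promoter windows of these 4 genes, 250 bases before to 50 bases after the start of transcription in RefSeq (GRCm38.p6), are shown because the genes share a ring and differ in liver. Capitals mark matches, on either strand, to any of 8 motifs, none of which contains another. The GC box, bound by factors of the Sp family, was searched as GGGCGG. The CCAAT box, bound by NF-Y, was searched by the letters of its name. The core of sites for the ETS family of transcription factors was searched as CCGGAAG. The TATA box near the start of many regulated genes was searched as TATAAA. The E box of helix-loop-helix factors was searched as CACGTG. The cyclic AMP response element (CRE) was searched as TGACGTCA, and sites of NRF1 and YY1 were each searched as a single fixed word.
Lsm3, chr6:91515785-91516084, plus strand: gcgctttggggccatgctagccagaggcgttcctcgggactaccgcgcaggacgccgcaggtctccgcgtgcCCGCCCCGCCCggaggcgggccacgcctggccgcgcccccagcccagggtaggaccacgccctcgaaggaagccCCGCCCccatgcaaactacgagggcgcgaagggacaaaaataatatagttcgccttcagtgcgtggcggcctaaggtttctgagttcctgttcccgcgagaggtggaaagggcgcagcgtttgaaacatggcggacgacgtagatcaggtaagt
Lsm8, chr6:18848385-18848684, plus strand: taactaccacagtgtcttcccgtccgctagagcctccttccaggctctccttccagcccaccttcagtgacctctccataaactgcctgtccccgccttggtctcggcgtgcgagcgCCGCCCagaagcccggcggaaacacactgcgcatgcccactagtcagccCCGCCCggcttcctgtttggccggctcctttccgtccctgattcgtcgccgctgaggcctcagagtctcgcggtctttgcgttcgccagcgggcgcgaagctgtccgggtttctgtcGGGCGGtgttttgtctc
Lsm2, chr17:34981604-34981903, plus strand: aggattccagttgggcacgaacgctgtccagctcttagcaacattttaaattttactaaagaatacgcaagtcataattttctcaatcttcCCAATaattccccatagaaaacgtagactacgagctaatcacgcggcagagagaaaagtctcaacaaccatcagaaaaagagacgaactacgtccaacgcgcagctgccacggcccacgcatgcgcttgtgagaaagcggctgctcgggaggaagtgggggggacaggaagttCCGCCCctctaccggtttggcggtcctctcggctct
Lsm6, chr8:78821103-78821402, minus strand: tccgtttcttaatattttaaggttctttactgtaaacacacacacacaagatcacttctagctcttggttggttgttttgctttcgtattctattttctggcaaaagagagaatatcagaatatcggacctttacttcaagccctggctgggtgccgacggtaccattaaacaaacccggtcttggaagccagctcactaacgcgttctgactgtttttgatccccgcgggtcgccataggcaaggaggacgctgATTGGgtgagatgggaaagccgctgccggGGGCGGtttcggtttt
The windows of Lsm3 and Lsm8, low in liver, each held 3 GC boxes, of which 2 in Lsm3 overlap, and no CCAAT box. Those of Lsm2 and Lsm6, not lower in liver, each held 1 GC box and 1 CCAAT box. Lsm5, called lower in liver (-1.11 against colon and -1.50 against lung on the log2 scale), also has a CCAAT box. GC boxes per window were counted only for the windows shown, and no link between motifs and levels was tested. Among all 32851 RefSeq windows, 35.7% held a GC box and 37.4% a CCAAT box, so neither is rare, and a match is a description of letters and not of binding. Lsm2 has a further RefSeq window that is not printed.

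In the Sm ring, all 7 genes were called lower in liver than in colon and than in lung, where 63.8% and 74.5% of all genes were. Of the 7, 3 kept the call under all 4 scalings in each case. The median log2 differences of the 7 genes on the deposited scale were -1.17 and -1.25, beside -0.68 and -1.10 for all genes. Snrpd3 was instead called higher in liver with median ratio scaling, by 0.61 against colon and 0.99 against lung. Quantile normalisation gave it 0.27 against lung, also called higher. Snrpd2 was called higher in liver than in lung with median ratio scaling (0.36). Snrpb (chr2:130171414-130179403, minus strand), which encodes SmB, was at 89.0, 82.1 and 88.8 TPM in vehicle colon, 170.0, 179.6 and 167.3 TPM in lung and 44.3, 48.5 and 48.8 TPM in liver. Every lung library lay above every other library. On the deposited scale the log2 differences were 0.98 ± 0.067 for lung against colon and -1.85 ± 0.067 for liver against lung (limma adjusted p = 9.62e-07 and 1.14e-08). Both calls held under all 4 scalings, at 0.57 and -0.49 with median ratio scaling. Snrpn encodes SmN, nearly identical to SmB in protein, and reads from the pair could be split in a way that cannot be seen here; it was at 20.97 ± 0.966, 10.2 ± 0.182 and 5.71 ± 0.668 TPM in vehicle colon, lung and liver. Snrpe overlapped between colon and lung, with 128.0, 130.2 and 120.9 TPM in colon and 130.6, 113.7 and 126.5 TPM in lung, and was lower in liver at 50.6, 52.2 and 51.0 TPM. The ratio of Snrpb to Snrpe within a library was 0.69 ± 0.053 in colon, 1.401 ± 0.155 in lung and 0.92 ± 0.041 in liver (SD, n = 3). Snrpf, another ring member, was at 36.6 ± 1.52, 40.5 ± 0.783 and 12.9 ± 2.72 TPM, and its log2 difference between liver and colon was -1.46 ± 0.132 (adjusted p = 5.97e-06). Snrpd1 and Snrpf were lower in liver than in both other tissues under all 4 scalings.

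Of 11 U2 snRNP genes, 9 were called higher in lung than in colon, 10 lower in liver than in colon and 11 lower in liver than in lung. Among all genes 51%, 63.8% and 74.5% were so called. Of the U2 genes called, 2, 3 and 1 kept the call under all 4 scalings. Sf3a3, Sf3b2 and Sf3b5 were called higher in liver than in colon with median ratio scaling, and Sf3a2, Sf3a3 and Snrpa1 higher than in lung. Quantile normalisation did so for Sf3a3 and Sf3b5 against colon and for Sf3b5 against lung. Sf3b1, the largest SF3b subunit, which clamps the branch site, was at 102.8, 94.2 and 82.6 TPM in vehicle colon, 114.1, 116.3 and 114.2 TPM in lung and 30.4, 35.3 and 36.3 TPM in liver. It was called lower in liver than in both other tissues under all 4 scalings. On the deposited scale the log2 differences were -1.43 ± 0.095 against colon and -1.73 ± 0.095 against lung (adjusted p = 7.08e-07 and 1.32e-07). They were -0.49 and -0.38 with median ratio scaling. Sf3b4 and Sf3b6, also of SF3b, were lower in liver than in colon under all 4 scalings. Snrpa1, which binds a stem loop of U2 RNA, was higher in lung than in colon, at 32.6 ± 1.83 against 19.7 ± 1.89 TPM (log2 difference 0.70 ± 0.097, adjusted p = 1.30e-04). Sf3b2 was also higher in lung than in colon under all 4 scalings, with 130 ± 3.79 against 82.6 ± 6.49 TPM. The genes that recognise the branch point and the 3′ end of the intron, U2af1, U2af2 and Sf1, were each called higher in lung and lower in liver than in colon, but with median ratio scaling U2af1 and Sf1 were higher in liver than in colon (0.57 and 0.43 on the log2 scale).

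Among U5 genes, Prpf8 and Eftud2 differed in tissue pattern. Prpf8 (chr11:75486816-75509449, plus strand), which forms the scaffold of the catalytic core, was called between no pair of tissues on the deposited scale, at 41.8, 40.6 and 45.9 TPM in vehicle colon, 39.8, 41.4 and 41.1 TPM in lung and 41.7, 40.8 and 40.6 TPM in liver. With median ratio scaling it was called higher in liver, by 0.88 against colon and 1.35 against lung, and with quantile normalisation by 0.51 and 0.75. Eftud2 (chr11:102838473-102880985, minus strand), the GTPase that binds Prpf8, was at 19.7, 26.7 and 21.7 TPM in colon, 75.1, 77.5 and 61.8 TPM in lung and 9.97, 11.8 and 14.7 TPM in liver. Lung stood above both other tissues in every library. On the deposited scale the log2 differences were 1.61 ± 0.159 against colon and -2.47 ± 0.159 for liver minus lung (adjusted p = 1.21e-05 and 3.68e-07). Both calls held under all 4 scalings, at 1.20 and -1.15 with median ratio scaling. The ratio of Eftud2 to Prpf8 was 0.53 ± 0.107 in colon, 1.75 ± 0.218 in lung and 0.30 ± 0.062 in liver (SD, n = 3). Snrnp40, a WD40-repeat protein of U5, was at 23.5 ± 0.631 TPM in colon, 24.6 ± 1.36 TPM in lung and 6.97 ± 0.982 TPM in liver. It was called lower in liver under all 4 scalings. Against colon the log2 difference was -1.63 ± 0.101 on the deposited scale (adjusted p = 4.42e-07) and -0.76 with median ratio scaling. Snrnp200, the helicase that unwinds U4 from U6, was nearer to level at 23.4 ± 0.899, 29.3 ± 1.90 and 20.8 ± 1.12 TPM, called lower in liver than in lung (-0.47) but higher with median ratio scaling (0.85) and quantile normalisation (0.48). Txnl4a was called lower in lung than in colon, at 7.88 ± 1.26 against 10.7 ± 0.140 TPM (log2 difference -0.41 ± 0.167, adjusted p = 0.0477). That call was lost when any of 5 of the 6 colon and lung libraries was left out, the exception being lung vehicle replicate 1, and the adjusted p over its alternatives ran from 2.76e-04 to 0.157.

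All 6 genes of U4/U6 and the tri-snRNP were called higher in lung than in colon and lower in liver than in lung. Among all genes 51% and 74.5% were so called. Of the 6 genes, 2 and 1 kept the call under all 4 scalings. Prpf4 was called higher in liver than in lung with quantile normalisation (0.26). Usp39, which is needed for the tri-snRNP to join, was at 11.2, 11.5 and 11.7 TPM in vehicle colon and 24.3, 24.7 and 24.1 TPM in lung, a log2 difference of 1.03 ± 0.105 (adjusted p = 1.62e-05). Snrnp27, a tri-snRNP protein, was at 39.6 ± 1.14 and 68.4 ± 0.762 TPM (0.77 ± 0.077, adjusted p = 1.27e-05). Both were higher in lung than in colon under all 4 scalings, by 0.63 and 0.37 with median ratio scaling. Snrnp27 was also called lower in liver than in lung under all 4, by -1.53 on the deposited scale and -0.20 with median ratio scaling. In the Prp19 complex, Prpf19, the ubiquitin ligase that names it, was at 48.1 ± 1.57, 58.2 ± 2.52 and 57.8 ± 6.66 TPM in vehicle colon, lung and liver. It was called higher in liver than in colon (0.25 ± 0.089, adjusted p = 0.0256, 5.35e-07 to 0.0974 over its alternatives), a call lost without colon vehicle replicate 2 or 3, without liver vehicle replicate 2 or 3, and with the replicate block (adjusted p = 0.0515). Its partner Cdc5l was lower in liver than in colon under all 4 scalings, at 9.79 ± 0.319 against 27.4 ± 1.52 TPM. So was Aqr, which is only counted here with the Prp19 complex, at 5.89 ± 0.542 against 13.5 ± 0.885 TPM. Of the 4 DEAH helicases, all 4 were called lower in liver than in colon and than in lung, where 63.8% and 74.5% of all genes were. Only 1, Dhx8, was so against colon under all 4 scalings. Against lung, Dhx8 was called higher in liver with median ratio scaling (0.25) and quantile normalisation (0.39). With median ratio scaling Dhx16 was called higher in liver than in colon (0.61) and than in lung (0.38).

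Genes of the pathway outside the 50 were counted on the deposited scale. Of 62 genes in 6 further lists (U1 proteins, the minor spliceosome, catalytic stage and second step factors, snRNP assembly, the exon junction complex, and Sm and LSm proteins of other particles), 37 were called higher and 4 lower in lung than in colon, where 51% and 24.7% of all genes were. In liver, 1 was called higher and 52 lower than in colon, against 16.1% and 63.8% of all genes. Against lung, 0 were called higher and 58 lower in liver (0 and 58 at an unadjusted p below 0.05), against 13.5% and 74.5% of all genes. The counts that follow are to be read against the same shares. All 22 catalytic stage and second step factors were called lower in liver than in colon and than in lung. Of 15 assembly factors, which load Sm rings onto RNA, 8 were called lower in liver than in colon and 13 lower than in lung. Of the 12 proliferation genes, 12 were called lower in liver than in colon and 10 lower than in lung.

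RefSeq windows at the start of transcription were at hand for 38 of the 50 genes, 44 windows in all. The ETS core stood in 20 of the 44 windows, from 19 genes, where it stood in 8.86% of all 32851 windows. It stood in 7 of the 9 matched U2 snRNP genes, 3 of 5 of U4/U6 and the tri-snRNP, 2 of 3 of U5, 2 of 5 of the Sm ring, 1 of 6 of the LSm ring, 2 of 5 of the Prp19 complex, 2 of 3 DEAH helicases and 0 of 2 of the branch site group. A TATA box stood in 1 of 44 windows against 13.6% of all windows, a GC box in 26 against 35.7%, a CCAAT box in 21 against 37.4%, a CRE in 4 against 1.79%, a YY1 site in 3 against 0.852%, an E box in 3 against 7.15% and an NRF1 site in 0 against 0.971%. The counts describe letters in these windows and were not tested. The windows of Snrpe, among the highest of the 50 genes, and of Snrnp200 are shown as examples with ETS cores, with the same motifs in capitals.
Snrpe, chr1:133610231-133610530, minus strand: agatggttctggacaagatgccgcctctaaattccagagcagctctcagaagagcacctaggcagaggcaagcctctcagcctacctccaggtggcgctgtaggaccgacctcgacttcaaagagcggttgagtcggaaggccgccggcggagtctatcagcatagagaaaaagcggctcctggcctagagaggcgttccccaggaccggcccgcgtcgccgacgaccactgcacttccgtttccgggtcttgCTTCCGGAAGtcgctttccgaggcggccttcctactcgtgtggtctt
Snrnp200, chr2:127208136-127208435, plus strand: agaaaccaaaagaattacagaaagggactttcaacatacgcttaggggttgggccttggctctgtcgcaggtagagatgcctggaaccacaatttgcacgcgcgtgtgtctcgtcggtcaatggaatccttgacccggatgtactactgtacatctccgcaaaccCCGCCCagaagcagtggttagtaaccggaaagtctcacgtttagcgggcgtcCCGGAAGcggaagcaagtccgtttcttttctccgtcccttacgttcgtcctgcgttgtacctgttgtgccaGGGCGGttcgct
The Snrpe window held 2 ETS cores that overlap on opposite strands. The Snrnp200 window held 1 ETS core and 2 GC boxes.

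No core spliceosome gene changed with RECTAS in a single tissue by the adjusted threshold. In each tissue, 0 of the 50 genes were called between RECTAS and vehicle libraries by limma, where 0%, 0.00637% and 0.0167% of all genes tested were called in colon, lung and liver (0 of 14282, 1 of 15699 and 2 of 11944). At an unadjusted p below 0.05 the 50 included 1 higher gene and 0 lower in colon, 4 higher and 1 lower in lung, and 2 higher and 3 lower in liver, where that level held 0.805% higher and 0.812% lower among all genes in colon, 10.7% and 1.88% in lung and 3.59% and 8.03% in liver. These directions depended on the scale. After median ratio scaling the counts were 1 higher and 0 lower in colon, 1 and 2 in lung, and 6 and 1 in liver. Among all genes they were then 101 and 157 of 14282 in colon, 830 and 645 of 15699 in lung, and 751 and 597 of 11944 in liver. Summed TPM over the 50 genes was 2022 ± 141 in RECTAS colon, 2618.4 ± 2.46 in RECTAS lung and 1152.5 ± 19.2 in RECTAS liver (SD, n = 3), beside the vehicle sums given above. The median log2 difference of the 50 genes was 0.039 in colon, 0.067 in lung and 0.014 in liver, and that of all genes 0.018, 0.058 and -0.038. Other than Txnl4a, the 49 genes had log2 differences of at most 0.34 in size in any tissue.

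The log2 difference was above 0 for 29 genes in colon, 37 in lung and 29 in liver, where 57.2%, 65.4% and 40% of all genes lay above 0. After median ratio scaling the counts were 28, 26 and 35, where 54.7%, 50.5% and 51.4% of all genes lay above 0. Across tissues, 14 genes lay above 0 in all 3, 3 below 0 in all 3, and 33 were of mixed sign. The shares of all genes with these patterns were not computed. RECTAS and vehicle libraries did not overlap for 2 genes upward and 2 downward in colon (3.43% and 2.01% of all genes), 8 and 2 in lung (16.1% and 3.18%) and 4 and 4 in liver (5.75% and 13%).

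**Figure D4:**
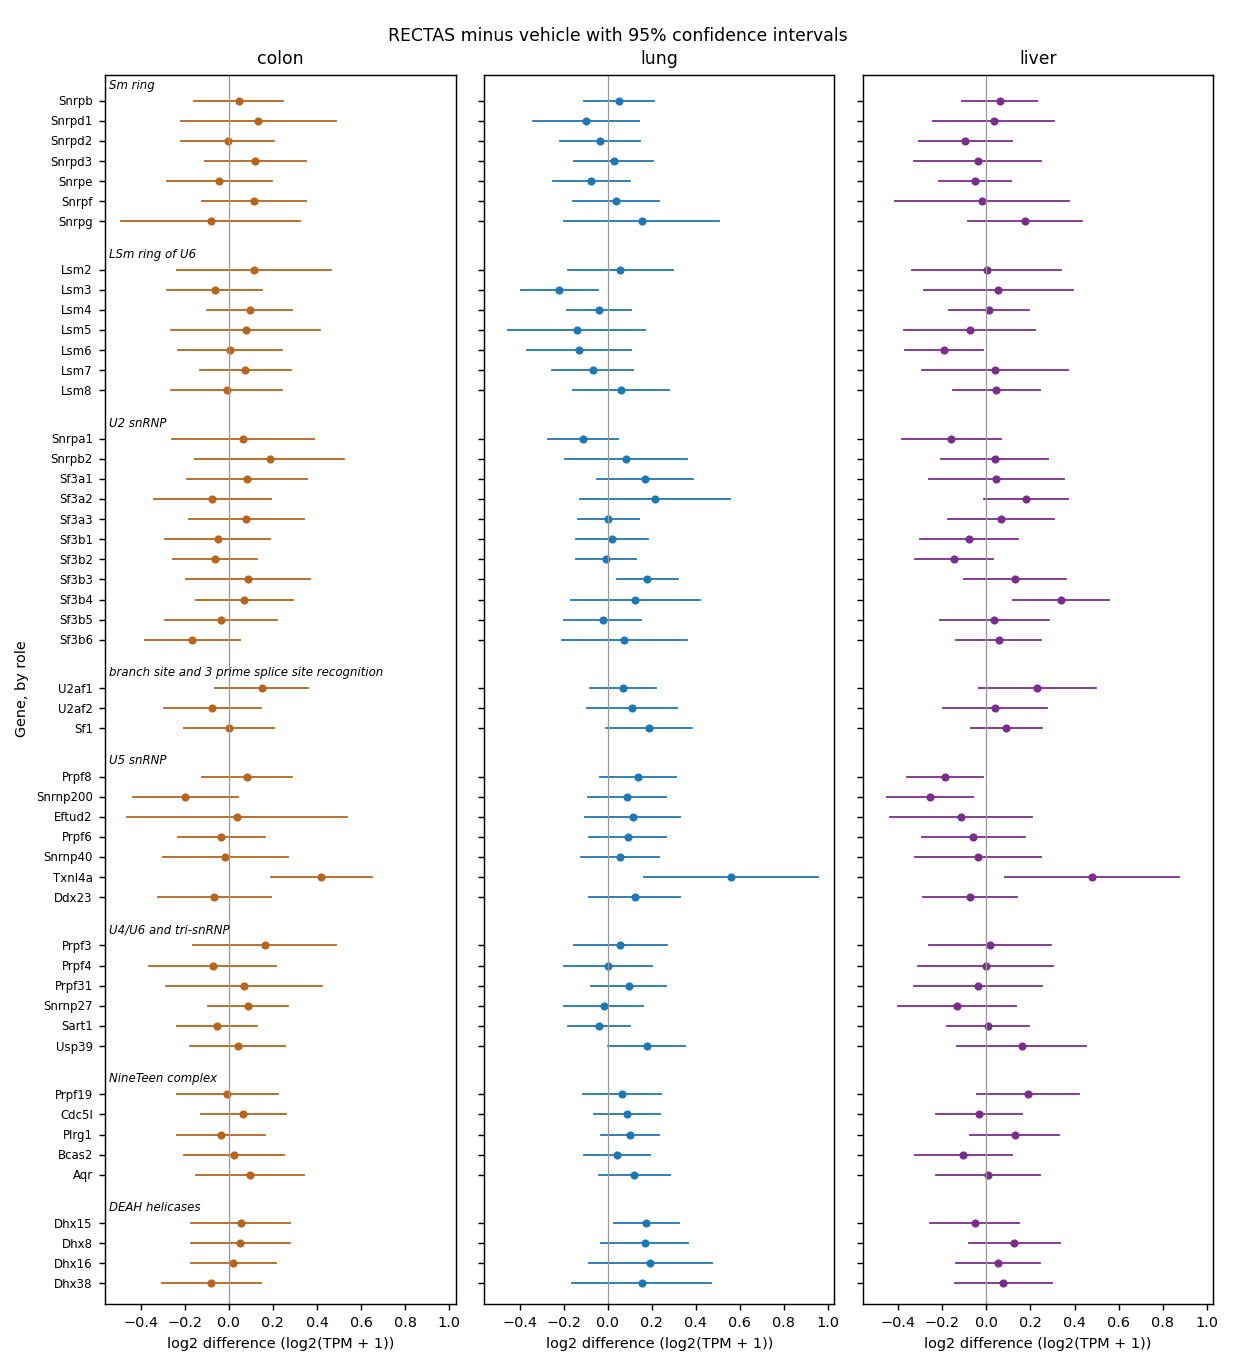
Log2 differences between RECTAS and vehicle libraries for the 50 core spliceosome genes in colon, lung and liver, on the log2(TPM + 1) scale. Points are limma estimates and bars 95% confidence intervals. Apart from Txnl4a, which lies at 0.42, 0.56 and 0.48, points stay within 0.34 of 0, and 0 genes passed the adjusted threshold in any tissue.

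Txnl4a had the largest log2 difference of the 50 in each tissue. It encodes a small thioredoxin-like protein of U5 that is also known as Dim1. In colon it was at 10.9, 10.7 and 10.6 TPM with vehicle and 15.2, 15.4 and 13.5 TPM with RECTAS. In lung it was at 9.15, 7.84 and 6.64 TPM with vehicle and 13.8, 9.38 and 13.3 TPM with RECTAS. In liver it was at 6.32, 8.34 and 10.49 TPM with vehicle and 11.2, 13.0 and 11.5 TPM with RECTAS. RECTAS libraries lay above every vehicle library in each tissue, narrowly so in lung. The log2 differences were 0.42 ± 0.098 in colon, 0.56 ± 0.167 in lung and 0.48 ± 0.167 in liver (SE, limma adjusted p = 0.9999, 0.309 and 0.378). Over all genes tested in the 18 libraries, 0.143% (25 of 17537) lay higher with RECTAS without overlap in all 3 tissues.

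When the 3 tissue differences were averaged in 1 limma fit of all 18 libraries, Txnl4a was the 1 core spliceosome gene called, where 0.188% of all genes were called in either direction, 0.0969% higher and 0.0912% lower. Its averaged log2 difference was 0.49 ± 0.092 (95% confidence interval 0.29 to 0.68, unadjusted p = 8.8e-05, adjusted p = 0.047), higher in 9 of 9 RECTAS libraries than the vehicle libraries of the same tissue, and its p ranked 33 among 17537 genes, of which 33 were called. The fit treated the 18 libraries as independent. If the tissues came from the same mice, the 9 RECTAS libraries are not 9 independent observations. The call sat at the threshold: the adjusted p ran from 0.0333 to 0.0772 over the other settings and from 0.0169 to 0.103 as each library was left out, and it stayed below 0.05 in 2 of 8 settings and in 2 of 18 such fits. The log2 difference itself stayed between 0.36 and 0.54. The log2 difference lay above 0 for 33 of the 50 genes, against 54.5% of all genes. No other of the 50 genes was called on average; 6 had an unadjusted p below 0.05 upward, Txnl4a among them, and 1 downward, where 5.83% and 3.99% of all genes did. Of these, Sf3b4 stood at 0.18 ± 0.061 and U2af1 at 0.15 ± 0.053, and Snrnp200 at -0.12 ± 0.047 (adjusted p = 0.311, 0.336 and 0.384).

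The Txnl4a value has a limit in the annotation. In GENCODE M21, 457 of its 4507 exonic bases are shared, on the same strand, with Gm16286, a protein-coding gene that averaged 55.5 TPM over the libraries, so reads there must be divided between the genes. Gm16286 was at 46.7 ± 3.73 TPM with vehicle and 46.8 ± 2.73 TPM with RECTAS in colon, 70.5 ± 3.16 and 69.2 ± 2.25 TPM in lung, and 50.5 ± 6.15 and 49.2 ± 2.62 TPM in liver. Its averaged log2 difference was -0.02 ± 0.050 (adjusted p = 0.963). With both genes summed into 1 row, an alternative chosen after seeing the data, the averaged difference was 0.07 ± 0.052 (adjusted p = 0.727), the sum being mostly Gm16286. The annotated Txnl4a transcripts run from 419 to 4078 bases, and a gene-level TPM depends on how reads are divided among them. Whether reads moved between these genes or between transcripts of Txnl4a was not tested.

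**Figure D5:**
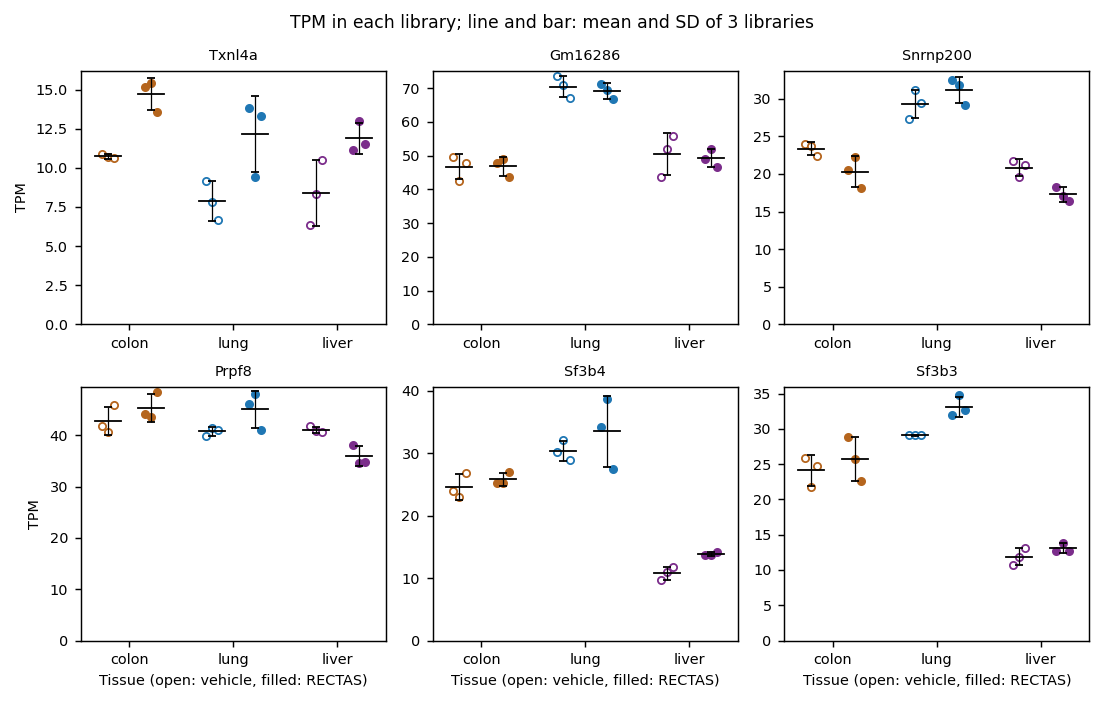
TPM per library for Txnl4a, its neighbour Gm16286 and 4 further core spliceosome genes, vehicle open and RECTAS filled, with the mean and SD of 3 libraries. Txnl4a RECTAS points lie above vehicle points in each tissue, Gm16286 means differ by under 2 TPM, and the liver points of Snrnp200 and Prpf8 lie lower with RECTAS while those of Sf3b4 lie higher.

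The helicase gene Snrnp200 was at 21.7, 19.6 and 21.2 TPM with vehicle and 18.3, 17.0 and 16.5 TPM with RECTAS in liver, with no overlap (log2 difference -0.26, 95% confidence interval -0.45 to -0.06, unadjusted p = 0.0167, adjusted p = 0.357). In colon it was at 24.0, 23.7 and 22.4 against 20.5, 22.2 and 18.2 TPM, again without overlap (-0.20, -0.44 to 0.04, adjusted p = 0.9999). In lung it overlapped, at 27.4, 31.2 and 29.4 against 32.4, 31.9 and 29.2 TPM. Prpf8 was at 41.7, 40.8 and 40.6 TPM with vehicle and 38.1, 34.7 and 34.9 TPM with RECTAS in liver (-0.19, -0.36 to -0.02, adjusted p = 0.402), while in lung it was at 39.8, 41.4 and 41.1 against 46.1, 48.1 and 41.0 TPM. The difference between tissues was itself tested: for liver minus lung it was -0.33 ± 0.1001 for Prpf8 and -0.35 ± 0.114 for Snrnp200 (adjusted p = 0.313 and 0.361). The median of all genes in that contrast was -0.075, and 35.5% of them lay above 0. Over the 3 such contrasts 0 of the 50 genes were called, where 0.0228%, 0.0285% and 0.0114% of all genes were called for liver minus lung, liver minus colon and lung minus colon. At an unadjusted p below 0.05 on the deposited scale they held 2, 1 and 1 of the 50 genes, each Prpf8 or Snrnp200, where 8.98%, 5.37% and 3.22% of all genes did. These counts depended on the scale. After median ratio scaling, liver minus lung held 4 of the 50 genes upward and 1 downward at that level. Among all 17537 genes, 710 and 625 were so placed.

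Among U2 genes, the smallest p in liver was that of Sf3b4, at 9.63, 10.97 and 11.7 TPM with vehicle and 13.7, 13.7 and 14.1 TPM with RECTAS. The groups did not overlap and the log2 difference was 0.34 (95% confidence interval 0.12 to 0.56, unadjusted p = 0.00811, adjusted p = 0.298). Sf3a2, a subunit of the SF3a complex, was at 9.57, 9.84 and 9.53 against 10.6, 11.7 and 10.8 TPM in liver (0.18, -0.01 to 0.37, adjusted p = 0.452). In lung Sf3b3, the SF3b scaffold, was at 29.1, 29.2 and 29.1 TPM with vehicle and 32.0, 34.8 and 32.6 TPM with RECTAS (0.18, 0.04 to 0.32, adjusted p = 0.324), and Snrpa1 lay lower without overlap (-0.11, -0.27 to 0.05, adjusted p = 0.524). In colon Snrpb2, the partner of Snrpa1, had a difference of 0.18 (-0.15 to 0.52) and Sf3b6, which sits at the branch site, of -0.17 (-0.38 to 0.05), each with adjusted p = 0.9999 and overlapping groups. Sf3b4, Sf3a2 and Sf3b3 share 85, 429 and 188 exonic bases with a gene on the opposite strand, and whether the counting used strand is not given in the sources used here, so a part of their reads is uncertain.

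In the remaining roles RECTAS differences were as follows. U2af1, which recognises the AG at the end of the intron, was at 86.5, 82.1 and 89.5 TPM with vehicle and 106.3, 90.3 and 90.7 TPM with RECTAS in colon, without overlap (0.15, -0.06 to 0.36, adjusted p = 0.9999). Lsm3 in lung was at 45.9, 40.0 and 40.0 against 35.3, 34.9 and 37.3 TPM, without overlap (-0.22, -0.40 to -0.04, unadjusted p = 0.0212, adjusted p = 0.333). Lsm6 lay lower in liver without overlap (-0.19, -0.37 to -0.02, adjusted p = 0.407) and overlapped in lung (-0.13, -0.37 to 0.11, adjusted p = 0.62). In the tri-snRNP, Usp39 was at 24.3, 24.7 and 24.1 against 27.6, 25.6 and 30.1 TPM in lung, without overlap (0.18, 0.003 to 0.35, adjusted p = 0.391). Among the DEAH helicases, Dhx15, which takes spent spliceosomes apart, was at 65.6, 68.5 and 67.0 against 71.7, 75.1 and 81.0 TPM in lung (0.18, 0.03 to 0.33, adjusted p = 0.344). Dhx38, which acts before the second step, differed by -0.08 in colon (-0.31 to 0.14, adjusted p = 0.9999). In the Sm ring, 0 of 7 genes had groups without overlap in any tissue, and in the Prp19 complex 0 in colon, 3 in lung and 1 in liver of 5 did, all upward, where 16.1% and 5.75% of all genes did so in lung and liver.

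The rest of the pathway gave no call with RECTAS either. Of the 62 further genes, 0 were called in any tissue, on average or between tissues by limma, with 61 of them tested in liver. At an unadjusted p below 0.05 there was 1 higher and 0 lower in colon, 6 and 0 in lung, 2 and 2 in liver, and 6 and 0 on average. Among all genes that level held 0.805% higher and 0.812% lower in colon, 10.7% and 1.88% in lung, 3.59% and 8.03% in liver, and 5.83% and 3.99% on average. On average the smallest p in each list belonged to Snrpc (0.04) and Snrnp70 (0.03) of U1, Zrsr2 (0.15) and Scnm1 (0.09) of the minor spliceosome, Cwc25 (0.13) and Ctnnbl1 (0.13) of the catalytic stage, Gemin6 (0.17) and Wdr77 (0.17) of snRNP assembly, Eif4a3 (0.08) and Magohb (-0.12) of the exon junction complex, and Lsm12 (0.09) and Snrpn (0.07) of other Sm and LSm particles, with the log2 difference in parentheses.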

How the data were processed

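Gene-level TPM of 18 libraries (3 tissues, vehicle or RECTAS, 3 libraries each) was used as the authors deposited it. RNA was taken up in TRIzol and a TruSeq stranded mRNA kit was used for libraries, as the labels' protocols say. Per the submitters' processing notes the tools included HISAT2 2.2.0 and RSEM 1.3.0 and the build was GRCm38; which step used which is not given in the sources used here. TPM keeps no depth, so no counting interval could be given, and few abundant genes can lower all others. No 2 libraries were identical (0 pairs). GENCODE M21 matched 55141 of 55401 gene identifiers and gave coordinates. Promoter sequences are RefSeq's (GRCm38.p6).

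A gene entered a fit where 3 or more of its libraries reached 1 TPM. Two-sided tests on log2(TPM + 1) used limma 3.58.1 with a variance trend (R 4.3.3), adjusted by Benjamini-Hochberg over all genes tested at 0.05. RECTAS was compared with vehicle within a tissue (6 libraries), tissues over the 9 vehicle libraries in 1 fit, and averages and differences between tissues over 18 libraries. Python 3.11.15 made tables and figures. The procedure was also run on simulated data, drawn as independent libraries with no shift of scale between them. The simulation therefore says nothing of paired libraries or of scaling.

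The members and lists were chosen with earlier results of these data known. Named were members called with RECTAS, the 3 per tissue and direction with the smallest p, the 5 per tissue pair and direction with the largest called difference, and the 5 highest and 5 lowest. For the further lists counts are given, and names only for the averaged difference (2 per list). Genes named for keeping a call under all 4 scalings, as near level, or beside a partner, and the genes whose promoters are shown, were chosen after their values were seen. Alternatives were pseudocounts of 0.1 and 5, no filter, a filter of 5 TPM, 3 other scalings, a replicate block, 1 fit of all libraries and leaving out each library.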

Additional observations from a re-analysis of the deposited data

How the results depend on the processing

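Counts of called genes among the 50 depended on the scale where tissues were compared. For lung against colon the total called was 35, and 22 with median ratio scaling. The higher count of 33 became 7 with it, and the lower count of 2 became 15 with median ratio scaling, 9 with quantile normalisation and 1 with a pseudocount of 0.1, with no filter, with rescaling without mitochondrial and the top 20 genes, or with the replicate block. For liver against colon the higher count of 2 became 19 with median ratio scaling, 13 with quantile normalisation and 1 with the replicate block, and the lower count of 42 became 13 and 21 with the scalings. For liver against lung the total of 45 became 28 with median ratio scaling, the higher count of 0 became 19 and 11, and the lower count of 45 became 9 and 27. Leaving out each library gave 27 to 32 called for lung against colon (26 to 31 higher, 1 to 2 lower), 41 to 44 for liver against colon (1 to 2 higher, 40 to 43 lower) and 44 to 45 for liver against lung.

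For RECTAS against vehicle, 0 of the 50 were called in any tissue, or between tissues, under every alternative run. On average the count of 1 (Txnl4a) became 0 with quantile normalisation, rescaling, the replicate block, a pseudocount of 0.1, and a filter of 5 TPM or none, and 0 to 1 as each library was left out; it held with a pseudocount of 5 and with median ratio scaling, and without lung RECTAS replicate 2 or liver vehicle replicate 3. Directions between tissues depended on the scale: with median ratio scaling 11 of the 50 called lower in liver than in colon (U2af1 and Sf1 among them) and 14 called lower in liver than in lung were called higher, and with quantile normalisation 5 and 6. Whether equal replicate numbers mark paired libraries could not be decided, as a group holds only 3 libraries. Deviations of same-numbered vehicle and RECTAS libraries correlated at 0.354, -0.294 and 0.039 in colon. Lung gave 0.409, -0.065 and 0.317, and liver gave 0.028, -0.014 and -0.021. The highest value between different numbers was 0.075 for lung, but 0.454 for colon and 0.129 for liver. Across tissues, same-numbered vehicle libraries lay between -0.092 and 0.077, and different numbers between -0.106 and 0.165. A filter of 5 TPM left 49 of the 50 genes tested in liver. Depth is unknown, so it sets no stated limit.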
